A study of Mus musculus with 115 samples.

Results

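The comparison described here is that of the Ant1 vector with the control vector in mouse hearts with no Ant1 and with the mitochondrial ND6 P25L mutation, called knockout ND6 hearts below. Its members were set by label, though with earlier results of these data known. The title number was read as the heart, and the libraries of each heart were summed. This gave 3 hearts labelled with the Ant1 vector (37, 5 and 8, with 8, 4 and 4 libraries) and 3 labelled with the control vector and the title code NI (20, 21 and 22, with 6, 6 and 4 libraries), or 32 samples of a series that holds 14 tables of 8 bulk libraries and 3 single-nucleus samples. All 6 hearts shared the C57BL/6JEiJ background, the absence of both copies of Ant1 and the ND6 P25L mutation. Each mouse had been injected into the pericardium with 2.5e+11 vector genomes, either of AAV2/9Des-Gfp-mAnt1, which encodes GFP and mouse Ant1, or of AAV2/9Des-Gfp, which encodes GFP alone. The controls had thus been infected too, and like the treated hearts they lacked Ant1 and carried the ND6 mutation. The study sampled hearts 1, 3, 6, 9 and 12 months after injection, but the labels tie no heart to a time, an age or a litter, so time and vector cannot be told apart. They do not say what Des stands for or which cells the vector reached, nor that the hearts came from separate animals, so p-values measure the spread between these hearts, whatever its source.

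The bulk libraries measured RNA of 22 hearts on a panel of 23930 amplicons, and its single-nucleus samples were not analysed here. Wild type and Ant1 knockout hearts without the ND6 mutation received the same 2 vectors, and serve below as the comparison for the knockout ND6 hearts. The 32 libraries had 4011052 to 8319248 reads each. Summed per heart this came to 26762439 to 54779297 reads with the Ant1 vector and 31326034 to 33300658 with the control vector. Expression is given as CPM, the reads of a gene per 1e+06 reads, of TMM-scaled totals.

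Ant1 is the heart and muscle form of the carrier that exchanges ADP for ATP across the inner mitochondrial membrane, and it is encoded by the nuclear gene Slc25a4. ND6 is a membrane subunit of respiratory complex I that is encoded by mitochondrial DNA. Loss of Ant1 leads to cardiomyopathy in mice and humans, and the study, by its title, concerns returning some Ant1 to hearts that carry a mitochondrial DNA mutation as well. The comparison asks which transcripts differ when such hearts receive Ant1 by gene transfer.

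Slc25a4 (chromosome 8, 46206797 to 46211284, minus strand, mm10) was measured in each heart first, because the vector supplies it. It stood at 55.6 CPM in heart 37, 66.7 CPM in heart 5 and 0.732 CPM in heart 8. The control vector hearts 20, 21 and 22 held 0.363, 0.219 and 0.851 CPM. The heart labelled Ant1 vector 8 therefore held no more Slc25a4 than heart 22, and the groups overlapped. Its 4 libraries all lay between 0.565 and 0.954 CPM, in both tables that held them. Over the 3 labelled hearts the log2 change was 6.42 ± 0.93 (SE; adjusted p = 0.000517), and without the heart labelled Ant1 vector 8 it was 6.99 (adjusted p = 6.62e-10). The change over the 3 labelled hearts did not pass when only the 6 hearts entered the fit. Even where it was found, the transcript was scarce: heart 37 reached 0.535% and heart 5 0.642% of the wild type control mean of 10390 CPM. In the Ant1 vector knockout hearts it was higher, at 174.3 to 241.4 CPM in 4 hearts. In heart 37 it also differed between its tables, at 64.0 to 75.8 CPM in the 4 libraries of the first and 24.6 to 46.1 CPM in the 4 of the second.

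A further 2 knockout ND6 hearts, 61 and 91, were labelled with the control vector but carried the title code IN that otherwise marks the Ant1 vector. They held 169.1 and 151.3 CPM of Slc25a4, more than any heart labelled Ant1 vector in this genotype. They were kept as a group of their own and entered neither side of the main comparison. Values for them, on their own or counted on either side, and values without the heart labelled Ant1 vector 8 are given beside many of the results.

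**Figure D1:**
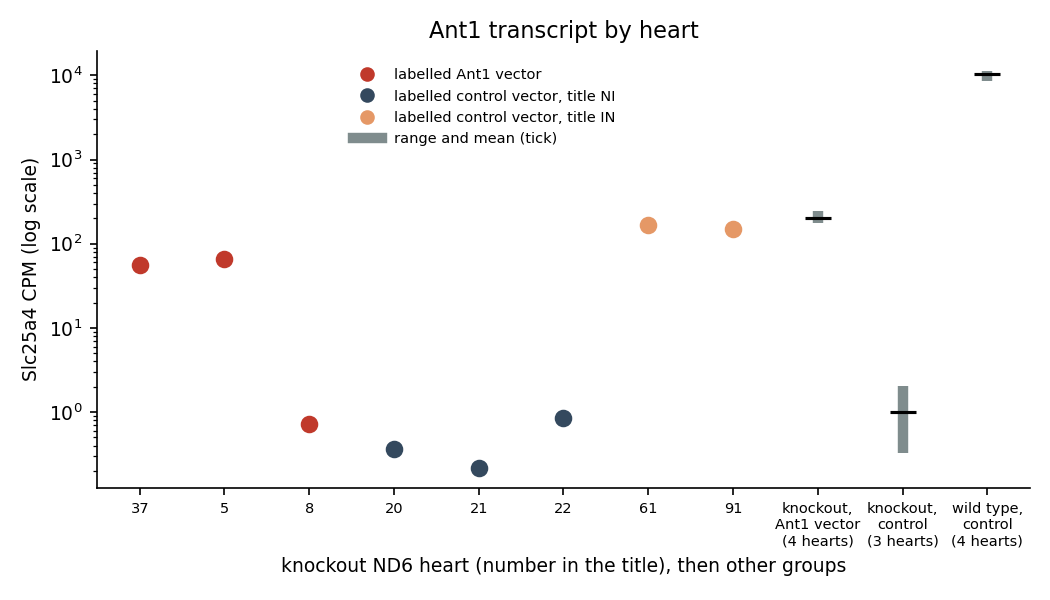
Slc25a4 in CPM on a log scale for each knockout ND6 heart (points, coloured by label) and as range and mean for 3 other groups. Hearts 37 and 5 lie at 55.6 and 66.7 CPM, the heart labelled Ant1 vector 8 lies with the controls under 1 CPM, and hearts 61 and 91 lie at 169.1 and 151.3 CPM.

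By edgeR's quasi-likelihood test with Benjamini-Hochberg adjustment over 15403 genes, 390 genes (2.53%) differed between the vectors. Of these, 270 (1.75%) were higher and 120 (0.779%) lower with the Ant1 vector. No overlap between the 3 and the 3 hearts was seen for 383 of the 390, and for 24.9% of all genes tested. The calls rest on the same hearts, so this count is no separate support for them. The changes were mostly small, with a median size of 0.65 on the log2 scale, and 65 genes were at least 2-fold higher and 25 at least 2-fold lower. The median log2 change of all genes tested was 0.004. Among called genes with a mean of 5 CPM or more on either side and no overlap of hearts, the falls were led by Hspa1b, Hspa1a, Cdo1 and Rrm2, and immediate early genes were among the largest rises. Without the heart labelled Ant1 vector 8, 1.05% of 15389 genes differed, and 38.7% of the 390 kept their call. The share of genes was 0.754% without control heart 20, 0.71% without heart 21 and 1.5% without heart 22, and 28.7%, 27.9% and 52.3% of the 390 kept their call. With hearts 61 and 91 counted as Ant1 vector hearts, as their title code would place them, 20 genes differed, all of them among the 390. In every one of these fits at least 388 of the 390 genes kept their direction.

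**Figure D2:**
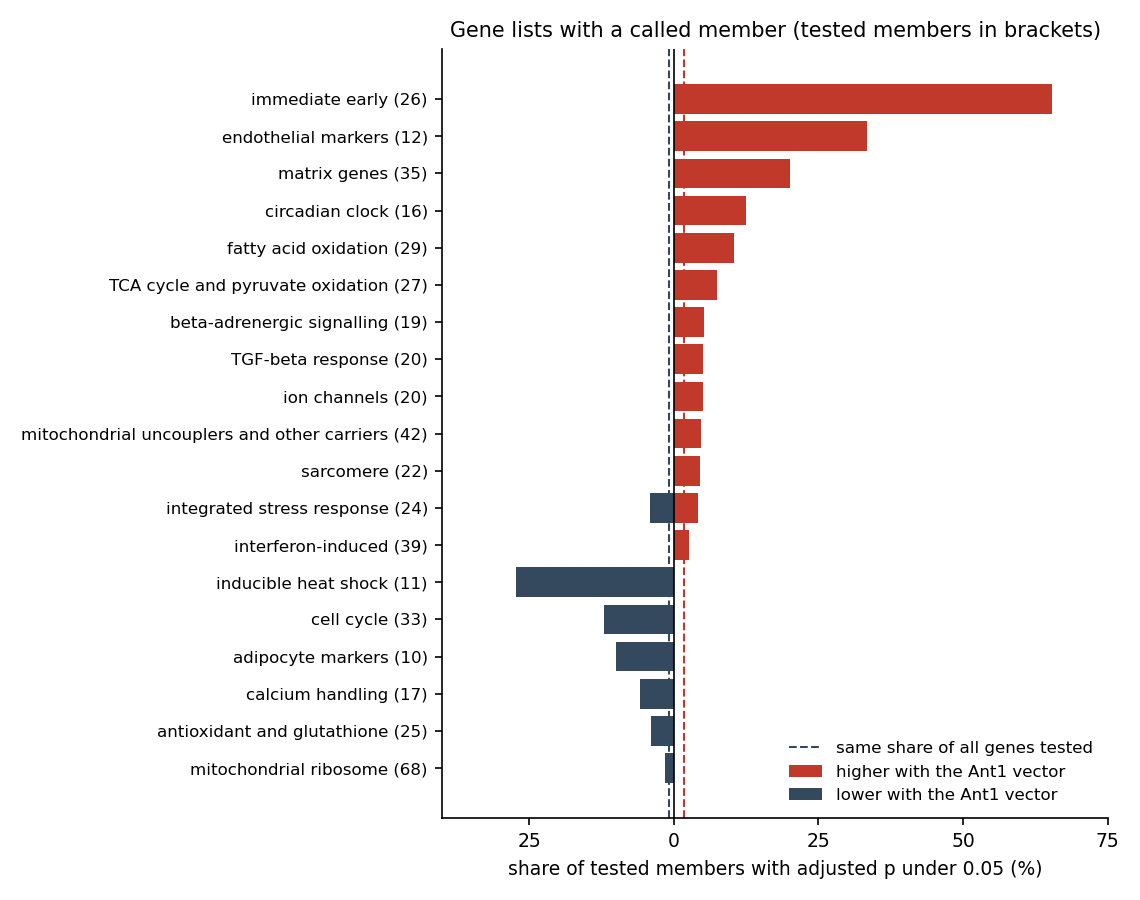
Share of each gene list's tested members with adjusted p under 0.05, to the right for higher and to the left for lower with the Ant1 vector; lists with no such member are not drawn, and dashed lines mark the share over all genes tested. Immediate early genes stand out on the right (17 of 26), and inducible heat shock (3 of 11) and cell cycle genes (4 of 33) on the left.

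Immediate early genes are transcribed within minutes of a stimulus, without new protein synthesis, and many encode transcription factors that set off later waves of expression. In heart they respond to stretch, adrenergic and calcium signals, injury and tissue handling. Of 26 such genes tested, 17 rose with the Ant1 vector, 0 fell and 9 did not pass, where 1.75% of all genes rose. Their median log2 change was 1.45. Their summed expression was 1571, 3688 and 2619 CPM in hearts 37, 5 and 8, and 887, 783 and 903 CPM in hearts 20, 21 and 22. All 3 labelled hearts thus lay above all controls, heart 5 highest and heart 37 lowest. In bulk RNA, fewer cells of a type and less RNA per cell cannot be told apart.

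Several of these genes carry, upstream of their start, the core TGACG of the cAMP response element. The RefSeq promoter windows of 250 bases before the start (GRCm38.p6) are printed for Fos (chr12:85473640-85473889, plus strand), Nr4a1 (chr15:101266596-101266845, plus), Btg2 (chr1:134079156-134079405, minus) and Dusp1 (chr17:26508473-26508722, minus), which are 4 of the 12 largest rises and moved together. Each is read 5′ to 3′ in the direction of the gene, and capitals mark TGACG or its reverse complement CGTCA.
Fos: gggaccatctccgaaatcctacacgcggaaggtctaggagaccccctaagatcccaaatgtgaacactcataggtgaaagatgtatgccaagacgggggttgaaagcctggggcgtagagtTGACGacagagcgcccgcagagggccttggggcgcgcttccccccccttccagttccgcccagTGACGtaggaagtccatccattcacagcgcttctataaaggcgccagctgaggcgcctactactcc
Nr4a1: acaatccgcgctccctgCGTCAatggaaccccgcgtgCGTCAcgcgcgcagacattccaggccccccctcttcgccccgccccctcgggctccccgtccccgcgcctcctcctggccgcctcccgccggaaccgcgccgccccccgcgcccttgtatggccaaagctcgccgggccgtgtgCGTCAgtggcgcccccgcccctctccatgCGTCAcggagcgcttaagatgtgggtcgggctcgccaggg
Btg2: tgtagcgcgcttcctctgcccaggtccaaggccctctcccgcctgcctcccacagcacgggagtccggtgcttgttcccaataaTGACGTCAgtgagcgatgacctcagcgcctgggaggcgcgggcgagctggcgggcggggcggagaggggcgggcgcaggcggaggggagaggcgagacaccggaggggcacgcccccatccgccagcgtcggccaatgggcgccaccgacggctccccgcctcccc
Dusp1: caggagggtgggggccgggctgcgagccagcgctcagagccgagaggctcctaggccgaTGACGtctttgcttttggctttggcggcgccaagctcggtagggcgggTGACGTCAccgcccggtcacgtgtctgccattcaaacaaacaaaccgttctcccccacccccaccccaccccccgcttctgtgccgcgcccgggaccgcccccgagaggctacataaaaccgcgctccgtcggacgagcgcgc
The windows hold 2, 4, 2 and 3 matches. Those of Btg2 and Dusp1 include the full palindrome TGACGTCA, in which TGACG and CGTCA overlap. Promoter windows were found for 22 of the 26 genes, 26 windows in all, and 15 of them (57.7%) held TGACG on either strand, against 17.8% of 32851 windows of the same length. TGACGTCA was in 2 of the 26 (7.69%) and in 1.55% of all. A match is a description of the letters and not a sign that a factor was bound.

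The AP-1 subunits led the list. Fos (chromosome 12, 85473890 to 85477273, plus strand, mm10) stood at 16.3, 111.9 and 61.0 CPM in hearts 37, 5 and 8, and at 3.11, 1.25 and 3.78 CPM in hearts 20, 21 and 22. The lowest Ant1 vector heart was more than 4 times the highest control, and the fold change was 23.1 (log2 4.53 ± 0.69 SE; adjusted p = 0.000938). Without the heart labelled Ant1 vector 8 the log2 change was 4.55 (adjusted p = 0.00353). Libraries of a heart lay close together: those of heart 5 were all at 107.8 CPM or above and those of heart 8 lay between 59.6 and 65.7 CPM. Fosb, which was read far less often, stood at 2.76, 6.22 and 3.95 CPM against 0.212, 0.188 and 0.0946 CPM (log2 4.67, adjusted p = 0.00571). Junb reached 59.6, 287.4 and 158.4 CPM against 41.9, 33.0 and 55.6 CPM, so that heart 37 was just above the highest control (log2 1.95, adjusted p = 0.00355). Jun overlapped between the groups, with 56.8 CPM in heart 37 and 59.4 CPM in heart 22 (log2 0.91, adjusted p = 0.0145).

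The zinc finger factors of the Egr family and the orphan nuclear receptors of the Nr4a family followed. Egr3 had 4.39, 41.0 and 27.6 CPM in hearts 37, 5 and 8 and 1.995, 1.88 and 2.30 CPM in the controls (log2 3.55 ± 0.49 SE; adjusted p = 0.000415). Heart 37 was close to the controls and the other two were more than 10-fold above them. Egr1 showed this more plainly still, with 36.4 CPM in heart 37, inside the control range of 27.0 to 66.2 CPM, and 808 and 534 CPM in hearts 5 and 8 (log2 3.38, adjusted p = 0.00403). Nr4a1, by contrast, was high in all 3, at 225, 427 and 303 CPM against 30.4, 38.4 and 26.3 CPM (log2 3.33 ± 0.79 SE; adjusted p = 0.0284). Its adjusted p was above 0.05 when heart 5, 8, 20, 21 or 22 was left out, and was 0.0592 without the heart labelled Ant1 vector 8. Nr4a1 varied widely elsewhere too, from 11.3 to 146.4 CPM among wild type control hearts. Nr4a2 had 2.01, 11.8 and 8.30 CPM against 1.13 to 1.39 CPM (log2 2.55, adjusted p = 0.0118).

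Feedback regulators that are induced together with these factors rose as well. Btg2, an antiproliferative gene, had 62.8, 271.9 and 164.2 CPM against 33.3, 25.5 and 37.6 CPM (log2 2.37 ± 0.34 SE; adjusted p = 0.000517). Zfp36 encodes tristetraprolin, which destabilises AU-rich mRNAs, and had 58.0, 124.6 and 84.0 CPM against 20.3, 17.1 and 25.3 CPM (log2 2.08 ± 0.27 SE; adjusted p = 0.00033). Dusp1, a phosphatase that switches off MAP kinases, had 93.6, 259.8 and 165.5 CPM against 52.5, 36.5 and 53.2 CPM (log2 1.87 ± 0.26 SE; adjusted p = 0.00043). In each of these the order was heart 5, heart 8, heart 37 and then the controls, without overlap. Cyr61, a secreted matrix protein, rose 2.79-fold (adjusted p = 0.000415), and the Krüppel-like factors Klf2 and Klf4 rose 2.26-fold and 2.39-fold (adjusted p = 0.00115 and 0.00254). Gadd45b was, unlike these, highest in heart 37, at 53.5 CPM against 30.1 and 27.6 CPM in hearts 5 and 8 and 12.7 to 15.5 CPM in the controls (log2 1.42, adjusted p = 0.035).

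Some members did not move with the rest. Atf3, a stress-induced repressor, had 68.9, 54.1 and 46.9 CPM against 43.5, 43.2 and 27.6 CPM (log2 0.57, adjusted p = 0.46). Gadd45g had 54.2, 41.6 and 33.9 CPM against 67.5 to 69.4 CPM, all Ant1 vector hearts below all controls (log2 -0.66, adjusted p = 0.0582). Myc, Jund, Ier3, Ier5, Klf6, Fosl2 and Nr4a3 did not pass either.

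The rise is given here beside the measured Slc25a4 of each heart, and a link between them was not tested. The heart labelled Ant1 vector 8, with Slc25a4 at the control level, was above every control heart for 20 of the 26 genes, heart 5 for 21 and heart 37 for 19. Hearts 61 and 91, with the most Slc25a4, were above every control for 6 and 8 genes and below every control for 8 and 8. Fos in them was 2.26 and 5.15 CPM and Egr3 2.77 and 1.41 CPM. Without the heart labelled Ant1 vector 8, 13 of the 26 rose; without heart 5 it was 12, and without control heart 20 or 21 it was 11. With hearts 61 and 91 counted as Ant1 vector hearts it was 0. Counted as control vector hearts, as labelled, they left 17.

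**Figure D3:**
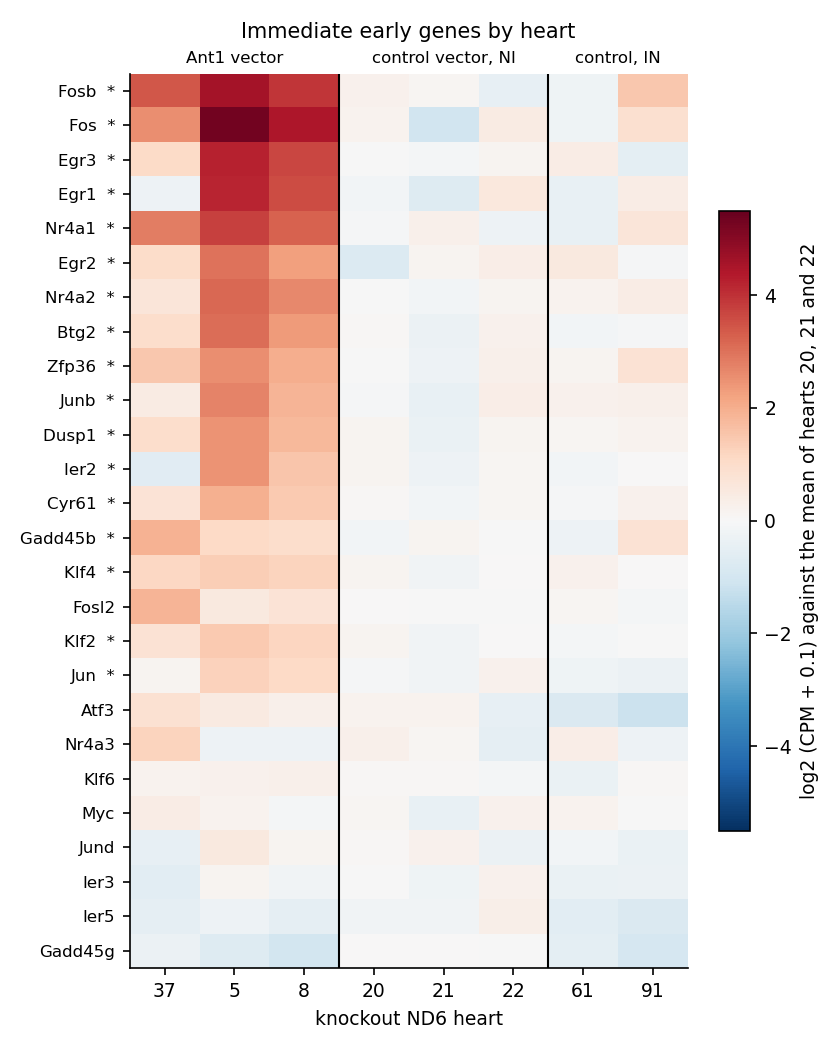
Each row is an immediate early gene and each column a knockout ND6 heart; colour gives log2 of (CPM + 0.1) relative to the mean of hearts 20, 21 and 22, and a star marks adjusted p under 0.05. Hearts 5 and 8 are red for most genes, heart 37 less so, and hearts 61 and 91 are near the controls.

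Other genes known for fast induction were among the largest rises. Rasd1, a small GTPase induced by glucocorticoids, rose 3.97-fold (16.5, 27.9 and 18.9 CPM against 6.11, 4.38 and 5.42 CPM; adjusted p = 0.00504). Plk3, a stress-responsive kinase, rose 3.66-fold (adjusted p = 0.00626). Slc25a25, an inner membrane carrier of ATP-Mg and phosphate that calcium regulates, had 6.12, 7.55 and 6.11 CPM against 1.84, 1.69 and 2.21 CPM (3.44-fold, adjusted p = 0.00242). Of 42 mitochondrial carriers other than the ADP/ATP carriers it was 1 of 2 that rose, with Slc25a22, a glutamate carrier (1.47-fold, adjusted p = 0.0225). Of all genes, 1.75% rose. The clock gene Per1, which light, stress hormones and cAMP induce, was nearly equal among the Ant1 vector hearts, at 233, 237 and 235 CPM. The controls had 109.2, 87.0 and 96.6 CPM (log2 1.27 ± 0.19 SE; adjusted p = 0.000882). Of 16 clock genes Per1 and Bhlhe40 (1.38-fold, adjusted p = 0.022) rose, where 1.75% of all genes did. Bhlhe40 did not pass without heart 8, 20 or 21, nor Slc25a22 without heart 5, 20 or 22. Hearts 61 and 91 had 81.9 and 120.9 CPM of Per1.

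Both inducible Hsp70 genes fell, by more than any other called gene with a mean of 5 CPM or more on either side and no overlap. Hspa1a and Hspa1b encode nearly the same inducible Hsp70, the chaperone that heat shock factor 1 calls up when proteins misfold. They lie side by side on chromosome 17 (Hspa1b at 34956436 to 34959238 and Hspa1a at 34969190 to 34972156, both on the minus strand, mm10). The amplicon counts of such copies could be split between them, and their 250-base promoter windows were equal at 247 positions. Both windows, at chr17:34972157-34972406 and chr17:34959239-34959488 on the minus strand (GRCm38.p6), are printed to show this likeness, with capitals for GAANNTTC, an arrangement of the heat shock element in which N is any base.
Hspa1a: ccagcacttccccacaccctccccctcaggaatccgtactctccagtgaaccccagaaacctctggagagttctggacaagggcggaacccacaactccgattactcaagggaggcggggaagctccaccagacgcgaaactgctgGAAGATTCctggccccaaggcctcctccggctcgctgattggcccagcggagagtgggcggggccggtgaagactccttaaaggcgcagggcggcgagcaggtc
Hspa1b: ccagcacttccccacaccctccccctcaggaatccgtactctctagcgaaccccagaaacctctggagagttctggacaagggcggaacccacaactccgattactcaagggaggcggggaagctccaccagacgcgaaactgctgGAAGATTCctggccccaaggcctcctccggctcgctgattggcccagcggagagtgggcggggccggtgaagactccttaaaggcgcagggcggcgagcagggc
Each window held 1 match, at the same place. The motif is its own reverse complement, and 6.69% of all windows and 4 of the 13 windows of the 11 heat shock genes held it. The other arrangement, TTCNNGAA, was in neither window and in 7.17% of all.

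Hspa1b had 2.40, 5.52 and 7.10 CPM in hearts 37, 5 and 8 and 57.2, 31.4 and 31.8 CPM in hearts 20, 21 and 22. It was 8.22-fold lower with the Ant1 vector (log2 -3.04 ± 0.36 SE; adjusted p = 0.000164). Hspa1a had 1.06, 2.03 and 4.10 CPM against 19.2, 8.50 and 11.2 CPM (5.57-fold lower, adjusted p = 0.00489). For each gene all 3 controls lay above all 3 Ant1 vector hearts. The sum of both was 3.46, 7.55 and 11.2 CPM against 76.4, 39.9 and 43.0 CPM (exact permutation test over hearts, two-sided, p = 0.1, the smallest that 3 against 3 hearts allow). Set beside the other groups, it was the control vector hearts that stood apart: hearts 61 and 91 had 6.25 and 6.04 CPM of Hspa1b, Ant1 vector knockout hearts 7.29 to 8.07 CPM, control vector knockout hearts 3.60 to 9.62 CPM and wild type control hearts 6.43 to 14.5 CPM. Heart 22 shared its library tables with hearts 61 and 91, and had 30.9 to 35.4 CPM of Hspa1b in its libraries against 5.24 to 6.69 CPM in theirs. Without the heart labelled Ant1 vector 8, the log2 change of Hspa1b was -3.39 (adjusted p = 0.000393) and that of Hspa1a -3.12 (adjusted p = 0.00338). With hearts 61 and 91 on the control side as labelled, the change of Hspa1b was -2.45 (adjusted p = 0.0288), that of Hspa1a was -1.94 and did not pass (adjusted p = 0.0774), and the summed level differed by -1.93 on the log2 scale (exact permutation test, p = 0.143).

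Of the 11 inducible heat shock genes, 3 fell and 0 rose, where 0.779% of all genes fell, and their median log2 change was -0.32. The third was Cacybp, a small cochaperone (94.2, 87.2 and 83.7 CPM against 116.1, 114.6 and 118.8 CPM; log2 -0.40, adjusted p = 0.0289, and 0.0983 without the heart labelled Ant1 vector 8). Dnajb1, an Hsp40 that works with Hsp70, had 19.3, 29.4 and 28.7 CPM against 33.5, 32.0 and 37.6 CPM (adjusted p = 0.162). Hsph1 overlapped, with 299 CPM in heart 37 and 79.0 and 112.2 CPM in hearts 5 and 8 against 219 to 283 CPM. None of 20 endoplasmic reticulum chaperones passed the edgeR test (4 at an unadjusted p under 0.05, and 2 by DESeq2, all lower). Of all genes tested, 19.5% had an unadjusted p under 0.05 and 5.56% passed by DESeq2, in either direction. The median log2 change of the chaperones was -0.15, and 8 of the 20 were lower without overlap, where 11.9% of all genes were.

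Of 33 cell cycle genes, 4 fell with the Ant1 vector, 0 rose and 29 did not pass, where 0.779% of all genes fell. Their median log2 change was -0.28. Rrm2 (chromosome 12, 24708241 to 24714146, plus strand, mm10), the subunit of ribonucleotide reductase made for DNA synthesis in S phase, had 3.17, 4.05 and 4.54 CPM against 14.1, 9.72 and 12.7 CPM (log2 -1.64 ± 0.21 SE; adjusted p = 0.000266). Cdk1, the kinase of entry into mitosis, had 2.76, 2.06 and 2.82 CPM against 6.35, 5.69 and 5.52 CPM (log2 -1.19, adjusted p = 0.0185). Ube2c, the ubiquitin-conjugating enzyme of the anaphase-promoting complex, had 8.33, 5.34 and 5.05 CPM against 14.9, 11.9 and 13.3 CPM (log2 -1.08, adjusted p = 0.0218). No heart of one group reached the other in any of these. Rrm1, the large subunit of ribonucleotide reductase, fell by 0.49 on the log2 scale (adjusted p = 0.0455), and Mki67, a marker of cycling cells, overlapped (2.64, 1.66 and 2.20 CPM against 2.99, 1.75 and 2.87 CPM; adjusted p = 0.707).

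The control vector knockout ND6 hearts stood apart here as well. Rrm2 was 3.55 CPM in each of hearts 61 and 91, 4.02 to 5.05 CPM in Ant1 vector knockout hearts, 2.98 to 4.52 CPM in control vector knockout hearts and 3.13 to 4.91 CPM in wild type control hearts, all below the 9.72 CPM of heart 21. Of the 33 genes, 2 fell without heart 5 or without heart 8, and 1 without control heart 20 or 21. The count was 0 with hearts 61 and 91 as control vector hearts and 2 with them as Ant1 vector hearts. Without the heart labelled Ant1 vector 8, Rrm2 kept its fall (log2 -1.76, adjusted p = 0.00119) and so did Cdk1 (adjusted p = 0.0475), while Ube2c had adjusted p = 0.0831 and Rrm1 0.104. With hearts 61 and 91 on the control side as labelled, Rrm2 had adjusted p = 0.0867 and Cdk1 0.223.

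**Figure D4:**
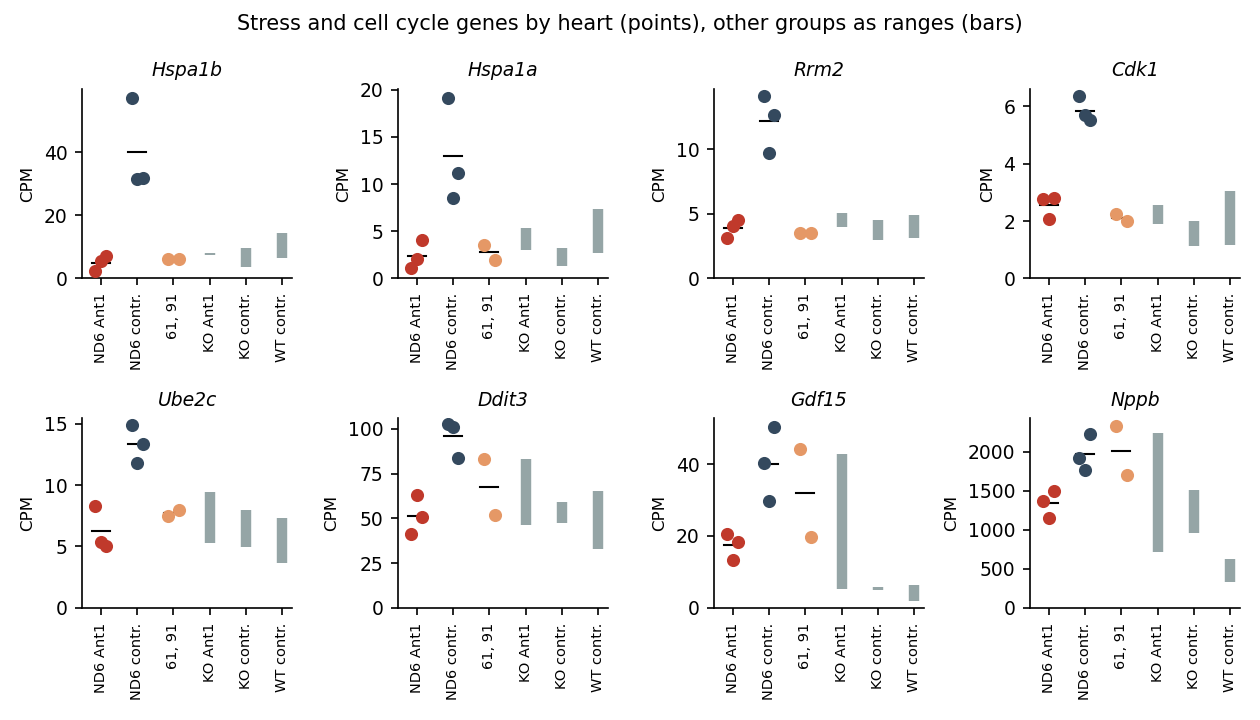
CPM per knockout ND6 heart (points; horizontal lines are means) and the range over hearts of 3 other groups (bars), for 8 stress and cell cycle genes on axes that start at 0. For Hspa1b, Hspa1a, Rrm2, Cdk1 and Ube2c hearts 20, 21 and 22 lie above every other heart drawn, while Gdf15 and Nppb in the knockout ND6 hearts lie above wild type.

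Of the integrated stress response, which slows translation and induces ATF4 targets, 24 genes were tested, 1 rose and 1 fell. Of all genes, 1.75% rose and 0.779% fell. Ddit3, the transcription factor CHOP, had 41.2, 63.0 and 50.6 CPM against 102.5, 101.2 and 84.0 CPM (log2 -0.90 ± 0.22 SE; adjusted p = 0.0351, and 0.0945 without the heart labelled Ant1 vector 8). Ppp1r15a, which restarts translation by recruiting the phosphatase of eIF2 alpha, had 66.4, 74.2 and 55.1 CPM against 34.9, 38.2 and 41.0 CPM (log2 0.78, adjusted p = 0.0256). Its call was lost without heart 5, 20 or 21, and that of Ddit3 also without heart 37, 20, 21 or 22. Atf4 itself had 222, 214 and 195.6 CPM against 251, 259 and 257 CPM (log2 -0.28, adjusted p = 0.209). Chac1, of the same list, lay higher without overlap but did not pass either. It had 13.9, 6.37 and 7.98 CPM against 2.27, 2.16 and 3.50 CPM (log2 1.85, adjusted p = 0.0849). Gdf15, a hormone secreted under mitochondrial stress, had 20.7, 13.3 and 18.4 CPM against 40.2, 29.7 and 50.4 CPM. Its groups did not overlap, but the spread was wide (log2 -1.19 ± 0.46 SE; adjusted p = 0.151), hearts 61 and 91 had 44.2 and 19.8 CPM, and every knockout ND6 heart was above the 1.995 to 6.395 CPM of wild type control hearts.

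Markers of cardiac strain were not shown to differ. None of 21 fetal and strain genes passed by edgeR or DESeq2, at a median log2 change of -0.04. An unadjusted p under 0.05 was found for 2 of them, and for 19.5% of all genes. Nppb, the natriuretic peptide released on wall stress, had 1372, 1146 and 1501 CPM against 1919, 1773 and 2227 CPM (log2 -0.56 ± 0.29 SE; adjusted p = 0.288), and 2331 and 1703 CPM in hearts 61 and 91. The mean of wild type control hearts was 485 CPM, below all 8 knockout ND6 hearts. Nppa had 2717, 1072 and 3841 CPM against 3660 to 3867 CPM (adjusted p = 0.229). The low value was that of heart 5. Its summed level of 5 defining atrial markers was 1287 CPM, against 3675 and 4570 CPM in hearts 37 and 8 and 4699 to 4939 CPM in the controls. Nppa is itself 1 of the 5 and makes up most of that sum, so the sum is no separate sign. Of the other markers, Myl7, Sln and Mybphl had 4179, 1335 and 326 reads in heart 5. In heart 8, read to a similar depth, they had 14012, 4789 and 1112 reads. Acta1 (adjusted p = 0.611) and Ankrd1 (adjusted p = 0.436) overlapped.

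In metabolism, 3 of 29 genes of fatty acid oxidation rose and 0 fell, where 1.75% of all genes rose, at a median log2 change of 0.14. Cpt1a, which admits long-chain fatty acids to mitochondria, had 83.2, 127.2 and 112.9 CPM against 57.5, 76.0 and 72.2 CPM (log2 0.65, adjusted p = 0.0157). Pdk4, the kinase that shuts off pyruvate dehydrogenase, had 1315, 803 and 705 CPM against 261, 484 and 407 CPM (log2 1.29, adjusted p = 0.0468), with heart 37 highest. Oxct1, the enzyme of ketone use, rose 1.25-fold (adjusted p = 0.0413). Ucp3, an uncoupling protein induced with fatty acid use, had 156.8, 260.8 and 196.6 CPM against 80.0, 109.8 and 114.7 CPM (adjusted p = 0.0503). None of these 3 calls held without the heart labelled Ant1 vector 8 (adjusted p = 0.0588 for Cpt1a and Pdk4, 0.0688 for Oxct1), and the count was also 0 without heart 5 or 20, 1 without heart 21 and 5 without heart 37.

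Genes of the respiratory chain showed no called change. None of 32 nuclear complex I subunits passed the edgeR test (6 at an unadjusted p under 0.05, and 1 by DESeq2, all lower), at a median log2 change of -0.12. None of 35 genes of complexes II to V passed it either (5 at an unadjusted p under 0.05, and 0 by DESeq2), at a median of -0.09. Of all genes tested, 19.5% had an unadjusted p under 0.05 and 5.56% passed by DESeq2, in either direction. Of 68 mitochondrial ribosomal protein genes 1 fell, Mrps12 (log2 -0.49, adjusted p = 0.03, and 0.0928 without the heart labelled Ant1 vector 8), with a median of -0.07. Of all genes, 0.779% fell. Ppargc1a, the coactivator of mitochondrial biogenesis, ranged from 161.6 to 470.7 CPM in the Ant1 vector hearts and from 203.9 to 369.5 CPM in the controls (adjusted p = 0.975).

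In the contractile apparatus 1 of 22 sarcomere genes rose, where 1.75% of all genes did. This was Myh6, the fast adult myosin heavy chain. It stood at 7295, 6822 and 7020 CPM in hearts 37, 5 and 8 and 4650, 4553 and 5025 CPM in the controls (log2 0.57 ± 0.12 SE; adjusted p = 0.0122). Hearts 61 and 91 lay between, at 5503 and 5739 CPM. The call was lost without control heart 20 (adjusted p = 0.0654), without heart 21 (0.0698) and with hearts 61 and 91 as Ant1 vector hearts (0.11). Of 17 calcium handling genes 1 passed, where 2.53% of all genes did. This was the calcium buffer Casq2, which fell by 0.32 on the log2 scale (adjusted p = 0.0312). It did not pass without heart 37, 5, 20 or 21 (adjusted p = 0.0637 to 0.14), nor with hearts 61 and 91 on either side. Atp2a2, which pumps calcium back into the store, overlapped (adjusted p = 0.746). Summed over 7 defining cardiomyocyte markers, expression was 66730 to 72140 CPM with the Ant1 vector and 64580 to 70390 CPM with the control vector.

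Of 35 extracellular matrix genes 7 rose, 0 fell and 28 did not pass, where 1.75% of all genes rose, and their median log2 change was 0.21. Fbn1, the fibrillin of microfibrils, had 65.1, 69.2 and 77.4 CPM against 32.3, 35.2 and 36.1 CPM (log2 1.03 ± 0.14 SE; adjusted p = 0.00043), and 60.6 and 53.6 CPM in hearts 61 and 91. Col4a2, a basement membrane collagen, had 90.1, 71.4 and 78.3 CPM against 39.3, 32.3 and 47.2 CPM (log2 1.01, adjusted p = 0.0021), and 70.0 and 54.9 CPM in hearts 61 and 91. For both, hearts 61 and 91 lay above all 3 controls, and the rise passed whichever side they were counted on. Col6a2, Col3a1, Col15a1, Col4a1 and Col6a1 made up the 7, with adjusted p from 0.00626 to 0.0309. Of the 35, 3 rose without the heart labelled Ant1 vector 8, 4 without heart 37, 2 without control heart 20, 3 without heart 21 and 11 without heart 5. The count was 2 with hearts 61 and 91 as control vector hearts and 3 with them as Ant1 vector hearts.

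Among endothelial markers 4 of 12 rose and 0 fell, where 1.75% of all genes rose. Cldn5, the claudin of endothelial tight junctions, had 10.7, 31.5 and 21.3 CPM against 4.69 to 5.14 CPM (log2 2.09 ± 0.29 SE; adjusted p = 0.00043), in the same order of hearts as the immediate early genes. Cdh5, the endothelial cadherin, had 216, 214 and 216 CPM against 153.1, 129.8 and 161.6 CPM (log2 0.54, adjusted p = 0.00634). Esam and Tie1 rose 1.47-fold and 1.29-fold (adjusted p = 0.0112 and 0.0215). The count was 1 without control heart 21. The summed level of 8 defining endothelial markers was 767 to 925 CPM with the Ant1 vector and 636 to 697 CPM with the control vector. Its part in the rise of Klf2 and of the basement membrane collagens, which endothelial cells express, was not tested. None of 13 fibroblast markers passed the edgeR test. At an unadjusted p under 0.05 there were 2, and by DESeq2 1, against 19.5% and 5.56% of all genes. The 7 defining fibroblast markers summed to 1765 to 1960 CPM against 1847 to 2048 CPM. Defining macrophage markers summed to 111.5 to 171.5 CPM against 99.6 to 128.4 CPM.

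Further falls were of single genes outside these groups. Banp, a nuclear matrix protein, had 25.7, 17.1 and 19.5 CPM against 50.4, 46.0 and 48.9 CPM (log2 -1.22 ± 0.16 SE; adjusted p = 0.00033). It fell with the vector in wild type hearts as well (log2 -0.85, adjusted p = 0.0401). Its difference between knockout ND6 and wild type did not pass (adjusted p = 0.564). Tnfrsf25, a death receptor of lymphocytes, had 2.76, 1.80 and 2.16 CPM against 6.50, 5.35 and 5.08 CPM (adjusted p = 0.00218). Rgs18, Cd226 and Plek, known from platelets and leukocytes, fell by 1.32, 1.59 and 1.01 on the log2 scale, with control heart 20 closest to the Ant1 vector hearts in each (adjusted p = 0.0209, 0.0351 and 0.0127, and 0.0815, 0.106 and 0.0668 without the heart labelled Ant1 vector 8). Defining lymphocyte markers summed to 3.72 to 4.63 CPM against 3.001 to 8.13 CPM, and their part in these falls was not tested.

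Cdo1, the enzyme that breaks down cysteine, had 4.72, 1.73 and 2.38 CPM against 23.0, 6.44 and 13 CPM (log2 -2.20, adjusted p = 0.0446, and 0.126 without the heart labelled Ant1 vector 8). Fat cells express it strongly, and the 5 defining adipocyte markers summed to 19.2, 2.47 and 4.57 CPM against 52.8, 15.9 and 31.6 CPM, with heart 20 highest for Cdo1 and for the markers. The marker Lep, which encodes leptin, was at 0.0915 and 0.0736 CPM in hearts 37 and 5, at 0 in heart 8 and at 0.844 to 2.51 CPM in the controls. It fell (adjusted p = 0.0154), but not without the heart labelled Ant1 vector 8 (0.0637), without control heart 20 (0.0816) or with hearts 61 and 91 as controls (0.0754). Their part in the fall of Cdo1 was not tested. G0s2, an inhibitor of fat breakdown, fell by 0.97 on the log2 scale (adjusted p = 0.0439, and 0.104 without the heart labelled Ant1 vector 8).

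The vector comparison could be set against those in knockout and wild type hearts, which used other controls. In the same fit 842 genes (5.47%) differed between vectors in knockout hearts, 2.19% higher and 3.27% lower, and 18 (0.117%) in wild type hearts, 0.0519% higher and 0.0649% lower. Of the 270 genes that rose in knockout ND6 hearts, 180 had a positive change in knockout hearts, 27 of them called, and 5 were called in the opposite direction, where 52% of all genes had a positive change. Of the 120 that fell, 68 had a negative change there, 11 of them called, and 3 were called in the opposite direction. In wild type hearts 200 of the 270 had a positive change and 88 of the 120 a negative one, where 48% of all genes were positive; 4 and 1 of these were called, and 1 riser was called in the opposite direction. Genes called in both genotypes in the same direction were 9.74% of the knockout ND6 calls and 4.51% of the knockout calls, and for wild type 1.28% and 27.8%. The difference of the vector effect between knockout ND6 and knockout was itself past the threshold for 219 genes (1.42%), and that between knockout ND6 and wild type for 42 (0.273%). Leaving out 1 heart moved the share from knockout to 3.7% without Ant1 vector knockout heart 27, 3.63% without heart 37, 0.468% without heart 8 and 0.37% without control heart 20. Without any 1 of the other hearts of these 4 groups it was 0.606% to 0.871%, except 1.04% without Ant1 vector knockout heart 20. The share from wild type was 0.611% without heart 37, 0.306% without wild type heart 23 and 0.0586% to 0.163% without any 1 of the other hearts of its 4 groups, lowest without control heart 21.

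Immediate early genes were prominent in both differences, with 9 of 26 more positive in knockout ND6 than in knockout hearts and 5 of 26 more positive than in wild type, where 0.805% and 0.201% of all genes were; the shares more negative were 0.617% and 0.0714%. In knockout hearts Fos had a log2 change of -0.07, with 2.08 to 3.30 CPM in the 4 Ant1 vector hearts, and the difference from knockout ND6 was 4.60 (adjusted p = 0.015). In the difference from wild type, Fos, Egr3 and Nr4a1 did not pass (adjusted p = 0.0692, 0.14 and 0.178). Zfp36 differed from both genotypes, by 2.01 (adjusted p = 0.0104) and by 2.24 (adjusted p = 0.011). Hspa1b did too, by -3.33 from knockout (adjusted p = 0.00196) and -2.54 from wild type (adjusted p = 0.0287), as did Rrm2, by -1.96 (adjusted p = 0.00196) and -1.73 (adjusted p = 0.011). When hearts 61 and 91 were counted as controls, as labelled, Hspa1b passed in neither difference (adjusted p = 0.0793 and 0.356), and Rrm2 did not pass in that from wild type (adjusted p = 0.368). With hearts 61 and 91 as Ant1 vector hearts, Fos, Egr3 and Nr4a1 did not pass from knockout (adjusted p = 0.189, 0.278 and 0.189). Zfp36, Btg2 and Hspa1b then did not pass from wild type (0.367, 0.628 and 0.0534). Hspa1b still passed from knockout (0.00179) and Rrm2 from wild type (0.0119). The difference of Hspa1b from wild type was also lost without knockout ND6 heart 5 or 20, or wild type heart 25, 81 or 83 (adjusted p = 0.0524 to 0.0848). For Fos, Zfp36, Hspa1b and Rrm2 the log2 change in knockout and wild type hearts lay between -0.50 and 0.58 and was not called.

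Gdf15 went the opposite way in knockout hearts, where it rose with the vector by 2.21 on the log2 scale (adjusted p = 0.0119), from 4.97 to 5.88 CPM in control hearts to 5.29 to 42.9 CPM. The difference from knockout ND6 was -3.41 (adjusted p = 0.0127). Agt, the precursor of angiotensin, did not pass in knockout ND6 hearts (log2 0.47, adjusted p = 0.46) but fell by 2.005 in knockout hearts (adjusted p = 0.00182), a difference of 2.47 (adjusted p = 0.0105). Myh6, Fbn1 and Cdh5 had log2 changes of 0.27, -0.05 and 0.17 in knockout hearts, and of these only Fbn1 differed from knockout ND6 past the threshold (adjusted p = 0.0104). As lists, matrix genes had a median log2 change of 0.195 in knockout hearts against 0.214 in knockout ND6 hearts. For endothelial markers the medians were 0.249 and 0.261. In knockout hearts 3 of 35 matrix genes and 2 of 12 endothelial markers were called higher, where 2.19% of all genes were. Slc25a4 rose by 7.67 in knockout hearts, and its difference from knockout ND6 did not pass (adjusted p = 0.755).

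**Figure D5:**
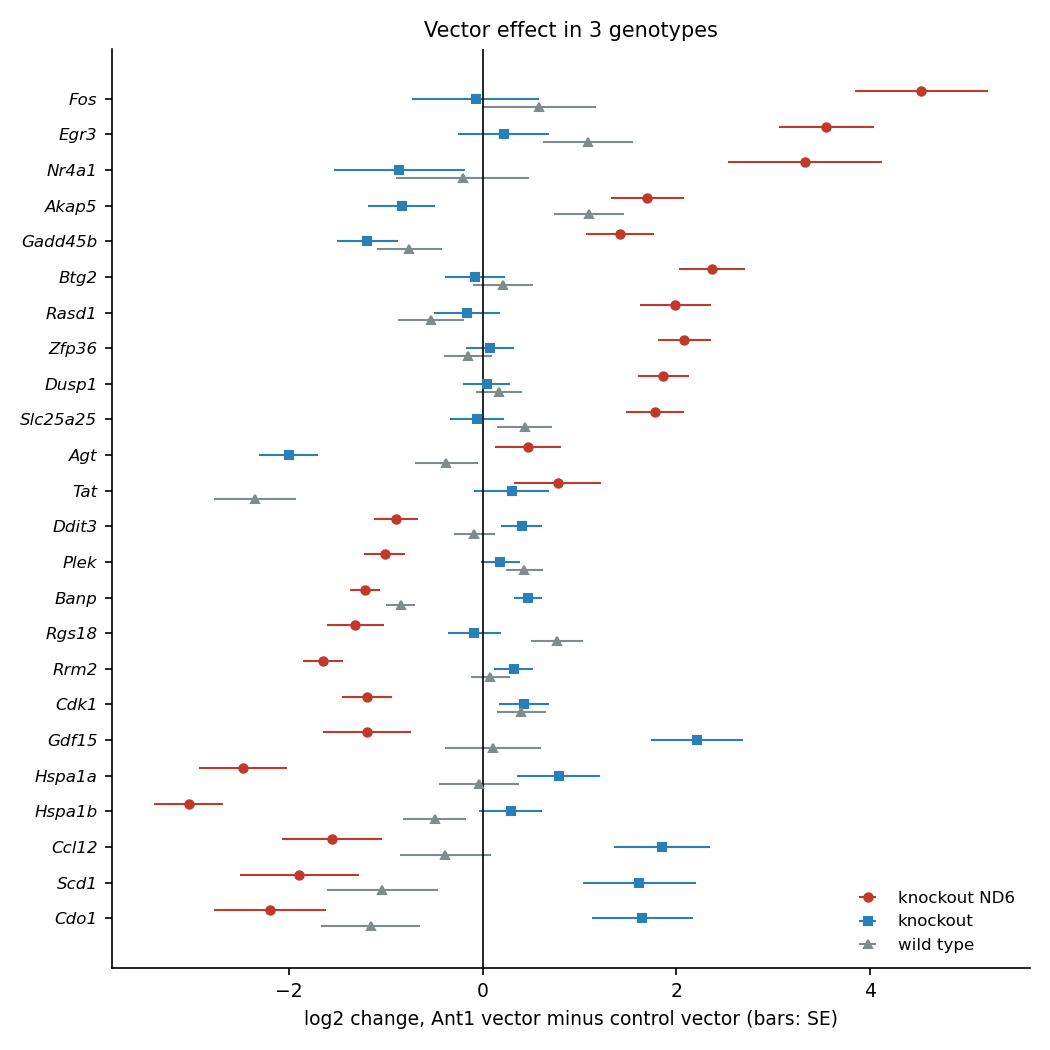
Log2 change with the Ant1 vector (points) and its standard error (bars) in knockout ND6, knockout and wild type hearts for 24 genes named in the differences between genotypes. Fos, Egr3 and Nr4a1 lie at 3.33 to 4.53 in knockout ND6 and at most 1.09 in the other genotypes, and Hspa1b lies at -3.04 against 0.29 and -0.50. The differences of Fos, Egr3 and Nr4a1 from wild type did not pass by edgeR (adjusted p = 0.0692, 0.14 and 0.178).

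Library tables held hearts of 1 vector only, apart from hearts 61 and 91, so in knockout ND6 hearts table and vector cannot be told apart. The difference from knockout can be estimated with the table as a term, because hearts 5 and 8 shared their tables with knockout hearts 21 and 22, heart 37 shared its tables with knockout heart 27, and control hearts 20 and 21 shared theirs with knockout hearts 36 and 38. In that fit (limma voom, chosen after seeing the data) the difference was 5.05 for Fos (adjusted p = 5.1e-08), 3.02 for Egr3 (adjusted p = 0.000159), -3.46 for Hspa1b (adjusted p = 4.75e-09) and -2.59 for Gdf15 (adjusted p = 0.000696). All 219 genes kept their direction and 93.6% of them their call. Of 10 genes named for their difference from wild type, 5 did not pass in that fit: Rasd1 (adjusted p = 0.0918), AY761185 (0.188), Plek (0.255), Rgs18 (0.27) and Slc25a4 (0.553).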

How the data were processed

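Heart RNA was read out on an amplicon panel. The deposited values are raw read counts per amplicon, per the file headers, on mouse build mm10 per the submitters' processing notes. The sources used here name no aligner or counter. Whole counts were not normalized by the authors, so the libraries of a heart were summed. Of the gene symbols, 27 appeared as dates and were restored. Libraries 80a and 80b, whose group the labels do not give, entered no comparison. TMM factors were 0.959 to 1.06. Genes were kept by filterByExpr (15403), and all 7 groups were modelled together with edgeR 4.0.16 under R 4.3.3, by the quasi-likelihood test and Benjamini-Hochberg adjustment at 0.05. Differences between genotypes were contrasts of that fit. DESeq2 1.42.0 and limma 3.58.1 served as alternatives, and Python 3.11.15 with pandas 2.3.3 made the tables. The fits were tested on simulated data. Coordinates came from GENCODE (mm10), promoters from RefSeq.

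The members and gene lists were chosen with earlier results of these data known. Genes named were the 12 largest rises and 12 largest falls that passed, had non-overlapping hearts and a mean of 5 CPM or more on 1 side, the 5 largest on each side of each difference between genotypes, up to 4 of each of 46 lists by adjusted p, and a set of heart and stress genes given always. Fosb, Egr1, Jun, Klf2, Klf4, Atf3, Gadd45g, Myc, Jund, Ier3, Ier5, Klf6, Fosl2, Nr4a3, Dnajb1, Hsph1, Col15a1, Col4a1 and Col6a1 were named after their values were seen.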

Additional observations from a re-analysis of the deposited data

Results flagged for a closer look

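Hearts 61 and 91, which were labelled with the control vector and stood on neither side of the main comparison, held 169.1 and 151.3 CPM of Slc25a4, above all 3 control hearts.

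The genes given here are those named as largest rises or falls, for differences between genotypes, or always. Genes named only from a list are left out. For 24 of them the vector effect in knockout ND6 hearts differed from that in knockout hearts, of 219 among all genes tested. The test was edgeR's quasi-likelihood test with Benjamini-Hochberg adjustment, and each value is the knockout ND6 log2 change minus the knockout one. Among immediate early genes and others of fast induction it was 4.60 for Fos (adjusted p = 0.015), 4.19 for Nr4a1 (0.0436), 3.33 for Egr3 (0.0148), 2.61 for Gadd45b (0.0104), 2.45 for Btg2 (0.0105), 2.15 for Rasd1 (0.0323), 2.01 for Zfp36 (0.0104), 1.825 for Dusp1 (0.0127) and 1.84 for Slc25a25 (0.026). It was 2.54 for Akap5, a kinase anchor (0.0151), 2.47 for Agt (0.0105) and 1.89 for Cldn5 (0.0215).

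The other 12 were negative. Stress genes were Hspa1b at -3.33 (adjusted p = 0.00196), Hspa1a at -3.26 (0.0127), Gdf15 at -3.41 (0.0127) and Ddit3 at -1.30 (0.0377). Genes of DNA synthesis and mitosis were Rrm2 at -1.96 (0.00196) and Cdk1 at -1.62 (0.0299). The remaining values were -3.85 for Cdo1 (0.0153), -3.51 for Scd1, a fatty acid desaturase (0.0417), -3.41 for the chemokine Ccl12 (0.021), -1.68 for Banp (0.000909), -1.26 for Tnfrsf25 (0.0366) and -1.20 for Plek (0.0418). The difference from knockout did not pass without the heart labelled Ant1 vector 8 for Nr4a1 (adjusted p = 0.0843), Scd1 (0.113), Cdo1, Akap5 and Ccl12 (0.0548 each).

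Against wild type hearts, 11 genes of the same selection differed in the same test, of 42 among all genes tested. The difference was 6.51 for Slc25a4 (adjusted p = 0.0134), which wild type hearts make themselves, 3.13 for Tat, a tyrosine aminotransferase (0.0373), 2.52 for Rasd1 (0.0373), 2.24 for Zfp36 (0.011), 2.16 for Btg2 (0.0483) and 1.70 for Dusp1 (0.0466). It was -2.54 for Hspa1b (0.0287), -2.08 for Rgs18 (0.0311), -1.99 for AY761185 (0.047), -1.73 for Rrm2 (0.011) and -1.44 for Plek (0.0373). With the table as a term, Slc25a4, Rasd1, Rgs18, AY761185 and Plek did not pass (adjusted p = 0.0918 to 0.553). Tat (0.0529), AY761185 (0.0663), Rasd1 and Rgs18 (0.0723 each), and Btg2 and Plek (0.0926 each) did not pass without the heart labelled Ant1 vector 8.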

How the results depend on the processing

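The share of tested genes that differed, 2.53% (1.75% higher and 0.779% lower), was 5.56% (3.15% and 2.42%) by DESeq2, 1.49% (0.981% and 0.505%) with libraries a and b only, and 1.32% (1.05% and 0.276%) when only the 6 hearts entered the fit. With hearts 61 and 91 as Ant1 vector hearts it was 0.134% (0.0535% and 0.0802%), and as control vector hearts 1.72% in all and 0.475% lower. The lower genes were 0.322% with no filter on low counts and 1.18% with heart 37 from libraries a to d. Leaving out each heart in turn gave 0.71% to 2.36% in all, 0.521% to 1.44% higher and 0.169% to 0.916% lower. The difference from knockout, 1.42%, was 2.86% by DESeq2, 0.981% with libraries a and b only, 0.18% with hearts 61 and 91 as Ant1 vector hearts, 8.43% with the table as a term and 0.37% to 3.7% without 1 heart. The difference from wild type, 0.273%, was 1.12%, 0.0878%, 0.0134% and 0.591% in those settings, 0.13% with heart 37 from libraries a to d, 0.134% with hearts 61 and 91 as control vector hearts and 0.0586% to 0.611% without 1 heart. The cause of these moves was not tested, except that leaving out hearts leaves fewer samples. The fit with the table as a term (limma voom, chosen after seeing the data) had 51 sums per heart and table with a within-heart correlation of 0.408, so its p-values may be too small.

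The summed Hspa1a and Hspa1b level had a log2 difference of -2.94 over 3 and 3 hearts (exact permutation test, p = 0.1). With hearts 61 and 91 as Ant1 vector hearts it was -2.77 (exact permutation test, p = 0.0357). Each of these p-values is the smallest that its number of hearts allows, so they do not rank the differences. With hearts 61 and 91 as control vector hearts, as labelled, the difference was -1.93 (exact permutation test, p = 0.143), and without 1 heart -3.31 to -2.47. With hearts 61 and 91 as control vector hearts, the change of Slc25a4 was -0.65 (adjusted p = 0.816) and its difference from wild type -0.57 (adjusted p = 0.948), since these hearts hold the transcript. Of the other values for named genes, 90.2% of changes and 69.1% of differences kept direction and side of the threshold, 8.04% and 30.7% kept direction but lost the threshold, and 1.74% of changes gained it. No paired analysis was possible because the hearts compared share no number. Depth was 26762439 reads or more per heart, but Lep, for example, rested on 27 to 83 reads per control heart and 0 to 5 per Ant1 vector heart.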
